A study of Mus musculus with 6 samples.

Results

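Ramp3 and 5 further genes of the calcitonin-like receptor system, Ramp1, Ramp2, Calcrl, Adm and Crcp, were followed in mouse regulatory T cells (Tregs) with and without stimulation of the adenosine 2A receptor (A2AR). The 6 genes were read from every probe set that the platform's annotation assigns to them. These were 11 probe sets naming 1 member gene, of 45101 on the array, and the 6 genes were among 18193 represented by a probe set naming 1 gene. A further 2 probe sets name Ramp2 together with its neighbour Vps25 and are described but assigned to neither. Ramp3 was chosen by its signal on the agonist arrays, which was already known to be high against WT vehicle, and the other members were chosen as parts of the same receptor system. So the values of Ramp3 in comparisons that use the agonist arrays are given as a description, with no test.

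Expression was measured on 6 arrays in 3 groups of 2. Per the labels, all cells came from C57Bl/6 mice aged 8 to 11 weeks that carry the FoxP3GFP reporter, and green cells were sorted from spleen and lymph nodes as CD4+CD25+FoxP3+. Wild-type cells (A2AR+/+FoxP3GFP) spent 18 h in culture in DMSO, the vehicle of the study (WT vehicle), or with the A2AR-selective agonist ATL1222 at 10 nM (WT ATL1222), and knockout cells (A2AR-/-FoxP3GFP) spent 18 h with vehicle (KO vehicle). No knockout cells received the agonist, so WT ATL1222 against KO vehicle differs in both genotype and agonist, and their parts cannot be told apart there. The labels do not say in which cells the receptor was deleted or whether replicates are separate animals. The p-values cover the spread between these arrays only.

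Receptor activity-modifying proteins (RAMPs) are single-pass membrane proteins that travel with a G protein-coupled receptor to the cell surface and set which peptide it recognises. The receptor encoded by Calcrl binds calcitonin gene-related peptide when paired with RAMP1, and adrenomedullin, the vasodilator peptide encoded by Adm, when paired with RAMP2 or RAMP3. Through the stimulatory G protein these receptors raise cAMP, as A2AR does, and calcitonin gene-related peptide is known to act on lymphocytes. Crcp encodes a small intracellular protein that helps the Calcrl receptor couple to its G protein and is also a subunit of RNA polymerase III.

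The promoters of Ramp3 and Ramp1 are shown because Ramp3 was the member with the high agonist values and Ramp1 a relative whose brightest probe set had its lowest values there. Each window holds 250 bases before and 50 after the RefSeq start, 5′ to 3′ in the gene's direction, and lies on the plus strand of GRCm38.p6, at chr11:6658283-6658582 for Ramp3 and chr1:91179572-91179871 for Ramp1. Capitals mark matches, on either strand, to the cAMP response element TGACGTCA and to its first part TGACG, which lies inside it. They also mark the hypoxia response element core in its form ACGTG, which can share bases with the motifs above, and in its form GCGTG.
Ramp3: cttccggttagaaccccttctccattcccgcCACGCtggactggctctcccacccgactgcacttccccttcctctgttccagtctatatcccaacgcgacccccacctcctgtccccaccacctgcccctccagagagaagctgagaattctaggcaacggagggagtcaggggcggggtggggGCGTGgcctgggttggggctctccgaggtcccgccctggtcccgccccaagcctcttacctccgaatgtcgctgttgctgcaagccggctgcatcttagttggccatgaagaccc
Ramp1: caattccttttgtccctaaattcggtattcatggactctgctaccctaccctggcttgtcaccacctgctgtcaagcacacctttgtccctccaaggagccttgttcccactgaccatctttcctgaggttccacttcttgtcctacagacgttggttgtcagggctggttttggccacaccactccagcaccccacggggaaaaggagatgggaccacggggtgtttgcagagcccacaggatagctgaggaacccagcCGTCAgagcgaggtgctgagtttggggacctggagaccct

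The Ramp3 window held 2 matches to GCGTG, 219 and 65 bases before the start, and 0 to the other motifs. The Ramp1 window held 1 match to TGACG, on the minus strand just after the start, and 0 to the others. Among 4 member genes with a promoter in the table (Ramp3, Ramp1, Calcrl and Adm), Calcrl held 1 match to GCGTG and Adm 2, and 0 of the 4 held TGACGTCA. Over all 32851 promoters of this length, 1.79% held TGACGTCA, 20.81% TGACG, 19.62% ACGTG and 32.39% GCGTG. A match describes the letters and is not a measured binding site.

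All deposited arrays shared 1 trimmed mean, so their overall levels are matched by scaling, but array medians ran from 74.7 to 98.2. They were 76.9 and 98.2 in WT vehicle, 84.1 and 96.3 in KO vehicle, and 74.7 and 87.7 in WT ATL1222. Replicate 1 was lower in every group, and the agonist array was lowest within each replicate number. The part of this in the values of dim genes was not tested. Signal ratios of 3' over 5' probe sets, which measure RNA integrity, ran from 1.21 to 1.45 for Gapdh and from 1.93 to 2.53 for Actb, with the lowest and highest Actb ratios on agonist replicates 1 and 2. Signals are on a linear scale, and tests used log2(signal + 16), so fold changes understate those of dim genes. Genes in the lowest 40% by mean, below a signal of about 71.2, were called dim and not tested, which left 10916 genes. Of 10 Treg and CD4 T cell markers, 9 were tested, and the list had summed signals from 31780 to 41360 per array. Against WT vehicle 0 of the 9 passed limma's test. In the knockout 1 had an unadjusted p under 0.05, beside 3.88% of all genes, and with ATL1222 there were 4, beside 4.99%. The 4 had log2 fold changes of 0.65 (Tnfrsf18), 0.86 (Cd4), 0.47 (Ctla4) and -0.34 (Nrp1). In WT ATL1222 against KO vehicle, Ctla4 and Tnfrsf18 were higher (limma adjusted p = 0.0390 and 0.00358), beside 0.98% of all genes that passed. Nrp1 had a log2 fold change of -0.40 there (limma adjusted p = 0.373). That comparison differs in genotype as well as agonist, and in the knockout Ctla4 and Tnfrsf18 had log2 fold changes of -0.28 and -0.46. The part of these markers in the Ramp3 values was not tested. Foxp3, used for the sort, was listed at 7.18 to 53.5, below the limit on every array.

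Ramp3, chosen by its agonist values, had separate agonist and vehicle signals. Its 1 probe set gave 331.5 and 166.3 in WT vehicle, 246.3 and 186.7 in KO vehicle, and 1573 and 1305 in WT ATL1222. Both agonist arrays lay above all 4 vehicle arrays, while the WT and KO vehicle arrays overlapped. The group means were 249 ± 117 (SD, n = 2), 217 ± 42.1 and 1439 ± 190 in that order. All 6 arrays put Ramp3 above that limit.

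**Figure D1:**
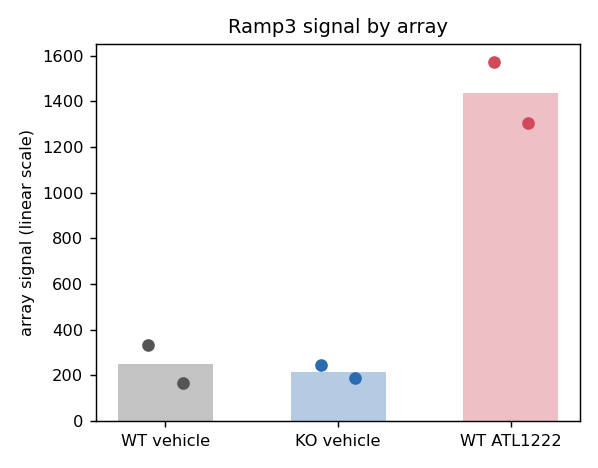
Ramp3 signal on a linear scale for each of the 6 arrays (points) with the mean of each group of 2 (bars). The agonist arrays, at 1573 and 1305, lie above the vehicle arrays of both genotypes, which run from 166.3 to 331.5.

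On the log2(signal + 16) scale Ramp3 was 5.75-fold higher with ATL1222 than in WT vehicle (log2 2.53 ± 0.27 SE) and 6.28-fold higher than in KO vehicle (log2 2.65 ± 0.27). Its log2 fold change against WT vehicle ranked 1 of 10916 genes, which is how it came to be chosen. The wild-type vehicle arrays differed from each other by more than the other pairs did. Leaving out WT vehicle replicate 1 gave a log2 fold change of 2.99, and leaving out WT vehicle replicate 2 gave 2.06.

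Loss of the receptor without agonist did not shift Ramp3 beyond the spread between arrays. The log2 fold change of KO vehicle against WT vehicle was -0.13 ± 0.27 SE (95% interval -0.72 to 0.46, limma adjusted p = 1.00). The order of levels was WT ATL1222 highest, with WT vehicle and KO vehicle not separated by their spread. This comparison and that of ATL1222 with WT vehicle share the WT vehicle arrays. The direction in the knockout rested on single arrays, since leaving out WT vehicle replicate 1 gave 0.34 and leaving out KO vehicle replicate 2 gave 0.06. In the knockout comparison 0 of the 5 tested member genes passed limma's test and 0 had an unadjusted p under 0.05, beside 0.0275% of all genes that passed and 3.88% under unadjusted 0.05.

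**Figure D2:**
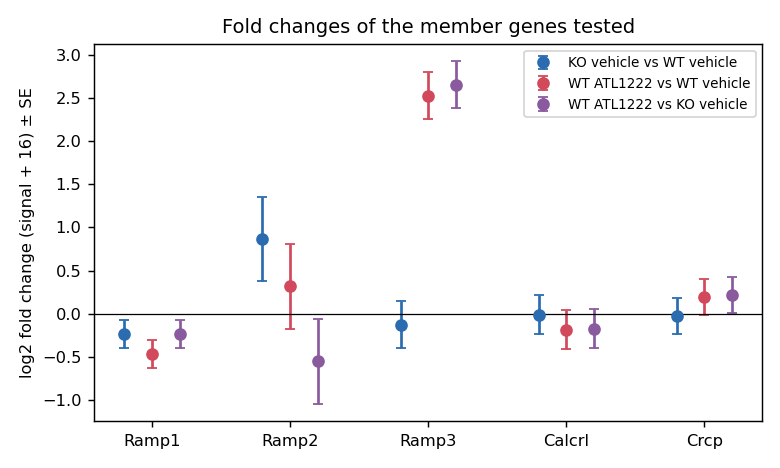
Log2 fold change of signal + 16 with its standard error for the 5 member genes above the limit for dim genes, in the 3 comparisons. Ramp3 lies at 2.53 and 2.65 in the comparisons with ATL1222 and at -0.13 in the knockout, and the other members lie between -0.55 and 0.87.

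Ramp1, the partner that makes the Calcrl receptor respond to calcitonin gene-related peptide, had its lowest signals with the agonist. Its brightest probe set (1417481_at) gave 1586 and 1361 in WT vehicle, 1386 and 1129 in KO vehicle, and 1033 and 1092 in WT ATL1222. The agonist arrays lay below all 4 vehicle arrays, and the vehicle groups overlapped. Against WT vehicle the log2 fold change was -0.46 ± 0.16 SE (95% interval -0.81 to -0.12, unadjusted p = 0.0126), which did not pass over all genes (limma adjusted p = 0.719). Among 4 tested members other than Ramp3, 0 passed limma's test in this comparison and Ramp1 alone had an unadjusted p under 0.05, beside 0.211% of all genes that passed and 4.99% under unadjusted 0.05.

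The difference of Ramp1 between ATL1222 and KO vehicle was smaller, at log2 -0.23 ± 0.16 (limma adjusted p = 0.803), and that between KO and WT vehicle was -0.23 ± 0.16 (limma adjusted p = 1.00). Against KO vehicle 0 of 4 tested members other than Ramp3 passed limma's test and 0 had an unadjusted p under 0.05, beside 0.98% and 8.46% of all genes. For the 2 dimmer Ramp1 probe sets the agonist arrays overlapped both vehicle groups. Probe set 1431413_at gave 62.8 and 146.8 in WT vehicle, 83.7 and 117.8 in KO vehicle, and 99.2 and 113.5 in WT ATL1222. Probe set 1447474_at gave 27.8 and 52.5 in WT vehicle, 81.7 and 61.7 in KO vehicle, and 4.38 and 82.1 in WT ATL1222. Its knockout arrays lay above its WT vehicle arrays, opposite in sign to the brightest probe set. With every probe set tested and no filter, its log2 fold change in the knockout was 0.67 ± 0.74 (limma unadjusted p = 0.383).

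Ramp2, the partner for adrenomedullin that is best known from blood vessels, was close to the limit for dim genes. Its 1 probe set gave 39.1 and 74.1 in WT vehicle, 85.2 and 147.7 in KO vehicle, and 59.7 and 86.1 in WT ATL1222. The knockout arrays lay above the WT vehicle arrays, and the agonist arrays overlapped both groups. The log2 fold change in the knockout was 0.87 ± 0.49 (95% interval -0.18 to 1.92, limma adjusted p = 1.00). It was 0.51 with WT vehicle replicate 1 left out and 1.22 with the other WT vehicle array left out, and with KO vehicle replicate 2 left out Ramp2 was below the limit and was not tested. The mean of WT vehicle, 56.6, was below the limit and that of KO vehicle, 116, above it. The probe sets shared with Vps25, an endosomal sorting gene, were brighter, at 285.1 to 402 and 699.7 to 981.4, and their groups overlapped in all 3 comparisons.

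Calcrl, the receptor itself, gave different pictures by probe set. The brightest (1425814_a_at) gave 332.9 and 311.2 in WT vehicle, 277.6 and 368.5 in KO vehicle, and 267 and 298.2 in WT ATL1222. The knockout arrays overlapped both other groups, and both agonist arrays lay below both WT vehicle arrays. The log2 fold change was -0.18 ± 0.23 with ATL1222 against WT vehicle (95% interval -0.67 to 0.30, limma adjusted p = 0.998) and -0.01 ± 0.23 in the knockout (limma adjusted p = 1.00).

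A second Calcrl probe set (1418489_a_at) was dim and had higher agonist values. It gave 5.74 and 3.61 in WT vehicle, 2.46 and 6.21 in KO vehicle, and 47.8 and 64.1 in WT ATL1222. Both agonist arrays lay above all vehicle arrays, but none of the 6 reached the limit for dim genes. With every probe set tested and no filter, its log2 fold change was 1.79 ± 0.47 against WT vehicle (unadjusted p = 0.00292, limma adjusted p = 0.823) and 1.82 ± 0.47 against KO vehicle (unadjusted p = 0.00263, limma adjusted p = 0.352). It did not pass in either comparison, where 0.02% and 0.2% of 34945 probe sets did. The third Calcrl probe set (1459536_at) ran from 13.9 to 47.6 with overlapping groups. Averaging the 3 probe sets turned the sign of Calcrl with ATL1222 against WT vehicle to 0.45 ± 0.37 (limma adjusted p = 0.999).

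**Figure D3:**
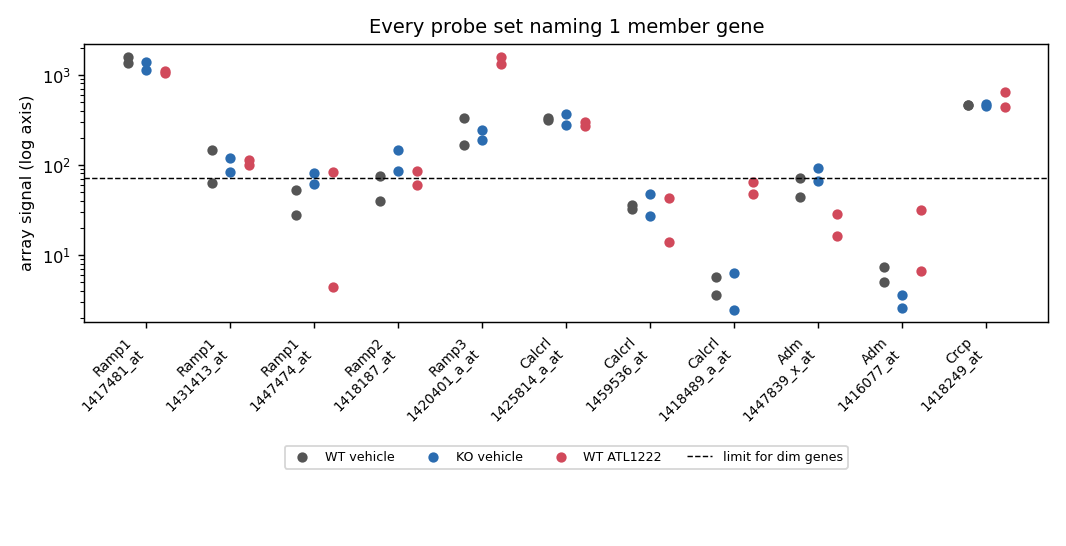
Signal on a log axis of the 11 probe sets that name 1 member gene, with 1 point for each array, coloured by group, and the limit for dim genes, 71.2, as a dashed line. Ramp3 and the dim Calcrl probe set 1418489_a_at have both agonist points above all vehicle points, while the brightest probe sets of Ramp1 and Calcrl do not.

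Adm, the adrenomedullin gene, was dim by both of its probe sets and was not tested with the other genes. Probe set 1447839_x_at gave 44.3 and 71.5 in WT vehicle, 92.2 and 66.6 in KO vehicle, and 16.3 and 28.5 in WT ATL1222. The agonist arrays were lowest. With no filter on dim genes the log2 fold change of this probe set was -0.94 ± 0.54 against WT vehicle (unadjusted p = 0.108, limma adjusted p = 1.00). Against KO vehicle it was -1.32 ± 0.54 (unadjusted p = 0.0309, limma adjusted p = 0.616). It passed in neither, beside 0.077% and 0.385% of all genes in that fit. Probe set 1416077_at ran from 2.60 to 31.6, and its highest value was on agonist replicate 2, so the 2 probe sets did not give the same order of groups.

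Crcp was level across the vehicle arrays. It gave 464.9 and 461.6 in WT vehicle, 470 and 443.5 in KO vehicle, and 642.9 and 440.9 in WT ATL1222. Only agonist replicate 1 stood apart, and the groups overlapped. The log2 fold change was 0.20 ± 0.21 with ATL1222 against WT vehicle (limma adjusted p = 0.998), and -0.07 without that array.

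Across the 11 probe sets, the groups did not overlap for 3 between KO and WT vehicle, or 27.3%, near the 30.2% of all probe sets. Of the 10 probe sets other than that of Ramp3, which was chosen by its agonist values, the groups did not overlap for 4 with ATL1222 against WT vehicle, 1 higher and 3 lower, beside 31% of all probe sets. Against KO vehicle it was also 4 of the 10, with 2 higher and 2 lower, beside 34.6%. Member genes had 1 to 3 such probe sets each, so these counts are not independent of one another.

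The rest of the calcitonin peptide family that could be read was dim. Of 11 family genes listed, 10 had a probe set naming 1 gene and 5 were tested, all of them members. The gene without such a probe set was Calca, so its level is not known here. Calcb, a gene for calcitonin gene-related peptide, ran from 30.3 to 90.1 with overlapping groups. Adm2, which encodes the related peptide intermedin, gave 77.2 and 73.9 in WT vehicle, 103 and 71.9 in KO vehicle, and 5.76 and 13.5 in WT ATL1222. Iapp, the amylin gene, gave 56.4 and 61.5, then 70.1 and 64.9, then 5.65 and 10.2 in the same order of groups. Both had agonist arrays below all vehicle arrays.

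With no filter, the log2 fold change against WT vehicle was -1.85 ± 0.53 for Adm2 (unadjusted p = 0.00449, limma adjusted p = 0.680) and -1.65 ± 0.53 for Iapp (unadjusted p = 0.00860, limma adjusted p = 0.806). Against KO vehicle it was -2.01 ± 0.53 for Adm2 (unadjusted p = 0.00258, limma adjusted p = 0.231) and -1.81 ± 0.53 for Iapp (unadjusted p = 0.00496, limma adjusted p = 0.333). Neither gene passed in either comparison. Calcr, the calcitonin receptor gene, gave 33.2 and 30.0 in WT vehicle, 45.9 and 5.12 in KO vehicle, and 3.19 and 3.41 in WT ATL1222. Its log2 fold change was -1.30 ± 0.59 against WT vehicle (unadjusted p = 0.0473, limma adjusted p = 0.929) and -0.91 ± 0.59 against KO vehicle (unadjusted p = 0.15, limma adjusted p = 0.853). Among the 7277 dim genes as a whole, 8.77% had a log2 fold change under -1 with the agonist against WT vehicle and 5.03% one over 1, with a median of -0.10. Against KO vehicle it was 9.08% and 4.27%, with a median of -0.125. Iapp had 4 probe sets, of which the brightest is given.

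Genes that handle the peptides were mostly below the limit. Ide, which encodes an enzyme that degrades amylin and other peptides, was the 1 tested member of 5 listed, at 1252 to 1526 with a log2 fold change of 0.06 ± 0.15 with ATL1222 (limma adjusted p = 0.998) and -0.04 ± 0.15 in the knockout (limma adjusted p = 1.00). Pam, which amidates peptide hormones, ran from 10.0 to 57.4, Mme, a peptide-cleaving membrane enzyme, from 35.9 to 98.8, and Ackr3, a scavenger receptor that also takes up adrenomedullin, from 1.79 to 59.7.

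Among 15 other receptors known to pair with RAMPs, 14 had a probe set naming 1 gene and 2 were tested. Vipr1, a receptor for vasoactive intestinal peptide found on T cells, ran from 77.1 to 126.6, with log2 fold changes of -0.02 ± 0.39 with ATL1222 (limma adjusted p = 0.998) and 0.38 ± 0.39 in the knockout (limma adjusted p = 1.00). Gper1, the G protein-coupled oestrogen receptor, ran from 58.8 to 148.4, with -0.27 ± 0.47 and 0.15 ± 0.47. Neither passed limma's test or had an unadjusted p under 0.05 in any comparison. The median of both was -0.15 with ATL1222 beside -0.01 over all genes, and 0.26 in the knockout beside 0.00.

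The machinery that couples and moves these receptors was well measured, with 9 of 10 listed genes tested. In each of the 3 comparisons 0 of the 9 passed limma's test. Their median log2 fold change was -0.03 with ATL1222 against WT vehicle, beside -0.01 over all genes, and -0.04 in the knockout, beside 0.00. Gnas, the stimulatory G protein subunit, was bright on every array, from 7899 to 9931, with log2 fold changes of 0.03 ± 0.15 with ATL1222 and -0.04 ± 0.15 in the knockout. Slc9a3r1, whose scaffold protein binds the tail of RAMP3, ran from 3252 to 4126, with -0.03 ± 0.14 and -0.12 ± 0.14. Nsf, a membrane fusion factor that also binds RAMP3, had -0.14 ± 0.21 with ATL1222 and -0.35 ± 0.21 against KO vehicle.

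In that list 1 of the 9 genes tested had an unadjusted p under 0.05 with ATL1222 against WT vehicle, beside 4.99% of all genes. It was Gna11, a G protein subunit of the phospholipase C pathway (log2 0.58 ± 0.26, unadjusted p = 0.0447, limma adjusted p = 0.975). Against KO vehicle it was also 1 of the 9, beside 8.46% of all genes. That gene was Arrb1, which encodes an arrestin that uncouples stimulated receptors (log2 0.43 ± 0.19, unadjusted p = 0.0405, limma adjusted p = 0.549). Arrb1 had a log2 fold change of -0.22 ± 0.19 in the knockout, and Gnaq, a relative of Gna11, -0.40 ± 0.25, and neither passed (limma adjusted p = 1.00 for both).

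The RNA polymerase III subunits, of which Crcp is 1, were level too. Of 18 listed, 15 were tested and 0 passed limma's test in any comparison, with medians of 0.02 with ATL1222, -0.03 in the knockout and 0.01 against KO vehicle. None had an unadjusted p under 0.05 against WT vehicle in either comparison, beside 4.99% of all genes with ATL1222 and 3.88% in the knockout. Against KO vehicle 1 of the 15 did, beside 8.46% of all genes. It was Polr3f (log2 0.57 ± 0.20, unadjusted p = 0.0125, limma adjusted p = 0.328), and its log2 fold change in the knockout was -0.34 ± 0.20 (limma adjusted p = 1.00). Polr3k had -0.28 ± 0.20 and Polr2f 0.20 ± 0.16 with ATL1222 (limma adjusted p = 0.998 for both).

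Calcrl and Ramp2 are abundant in endothelium, so markers of that cell type were read on the same arrays. Of 13 endothelial markers 4 were tested (Pecam1, Kdr, Flt1 and Lyve1) and 0 passed limma's test in any comparison. With ATL1222 against WT vehicle, 1 of the 4 had an unadjusted p under 0.05, beside 4.99% of all genes. It was Kdr, with a log2 fold change of -0.69 ± 0.32 (unadjusted p = 0.0486, limma adjusted p = 0.995). The summed signal of the 13 ran from 1156 to 1171 in WT vehicle, 1039 to 1218 in KO vehicle and 915 to 1090 in WT ATL1222. The brightest of the markers was Pecam1, a junction protein also made by leukocytes, at 364.4 to 475.9, followed by Kdr at 94.8 to 184 and Lyve1 at 83.2 to 143.7. Of the 13, 4 were below the limit on every array, and the others reached it on at least 1. Among the 4 were Vwf, a defining gene of endothelium, at 1.46 to 16.6 and Tie1 at 1.64 to 29.6. The part of such cells in the Calcrl and Ramp2 values was not tested. The stromal, B cell, myeloid, dendritic cell, and CD8 T and NK cell lists had 1, 2, 1, 1 and 2 tested members and 0 passed limma's test in any comparison. At an unadjusted p under 0.05 there was 1 such case, Cd8b1 in the knockout, where 3.88% of all genes were under that cut. In bulk arrays fewer cells of a type and less RNA per cell cannot be told apart.

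Genes with a pattern like that of Ramp3 over the 6 arrays were ranked by the Euclidean distance between log2(signal + 16) values centred on each gene's mean. The 10 nearest of 10915 genes were Epas1, Fosl2, Id2, Rnf157, Dgat1, Tnfaip3, Rgs1, Odc1, Vps37b and Rgs2, at distances from 0.936 to 1.32, beside a median of 3.13 over all genes. Their Pearson r with Ramp3 over these 6 arrays ran from 0.91 to 0.983, which mainly describes the split of agonist from vehicle arrays and carries no test. Epas1, which encodes the hypoxia-responsive factor HIF-2 alpha, was nearest and gave 250.9 and 85.6 in WT vehicle, 70.9 and 123.1 in KO vehicle, and 874.3 and 776.4 in WT ATL1222. As with Ramp3, its WT vehicle arrays lay far apart and overlapped the range of the knockout arrays.

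**Figure D4:**
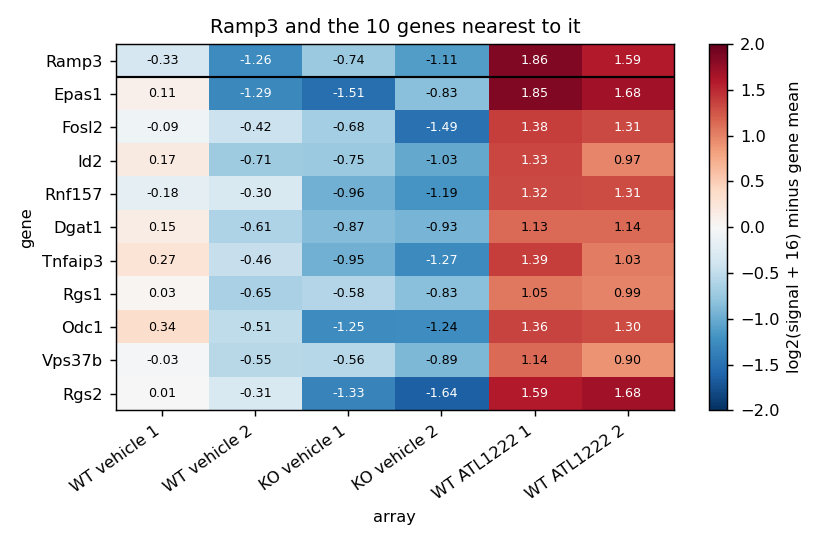
Log2(signal + 16) minus each gene's mean over the 6 arrays, for Ramp3 (top row) and the 10 genes nearest to it. Every gene shown has both agonist arrays above its mean, and Ramp3 at -0.74 and -1.11 in the knockout overlaps its WT vehicle values of -0.33 and -1.26.

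Knockout values are given for the near genes too. Rgs2, which encodes a brake on G protein signals, gave 4051 and 3255 in WT vehicle, 1592 and 1285 in KO vehicle, and 12110 and 12890 in WT ATL1222. Odc1, an enzyme that makes polyamines, gave 6810 and 3757, then 2242 and 2261, then 13760 and 13240. In both, the knockout arrays lay below the WT vehicle arrays. Log2 fold changes were -1.33 ± 0.15 for Rgs2 and -1.16 ± 0.21 for Odc1, beside -0.13 ± 0.27 for Ramp3. Rgs2 passed (limma adjusted p = 0.00556), beside 0.0275% of all genes, and Odc1 did not (limma adjusted p = 0.175). For Epas1 and for Rgs1, a relative of Rgs2, the WT and KO vehicle arrays overlapped, as they did for Ramp3. The log2 fold change in the knockout ran from -1.33 to -0.40 over the 10, beside a median of 0.00 over all genes. With ATL1222 against WT vehicle it ran from 1.30 to 2.35. The 10 were picked by likeness to Ramp3 over these same 6 arrays, so high agonist values follow from that choice. The knockout arrays were part of the choice as well, so these values are a description. The knockout comparison and that of ATL1222 with WT vehicle share the WT vehicle arrays, and the difference between Ramp3 and the near genes was not tested.

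Of the 10 near genes, 6 had a promoter in the RefSeq table, with 7 windows. TGACG occurred in 3 of the 7 (Odc1, Rgs2 and Tnfaip3) and TGACGTCA in 0. ACGTG occurred in 2, both of Tnfaip3, and GCGTG in 5, which belong to 4 genes (Odc1, Rgs2, Rnf157 and Tnfaip3). For so few windows the shares over all promoters, 20.81%, 1.79%, 19.62% and 32.39%, are given only as the scale against which to read them.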

How the data were processed

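The authors deposited array signals as intensities on a linear scale. Per the submitters' processing notes they used GCOS, whose version is not given in the sources used here. The mean without the top and bottom 2% of probe sets is equal on all deposited arrays, and this scaling was kept. Of 45101 probe sets, 64 controls were left out, 932 named several genes, 9160 had no entry in the annotation, and 34945 named 1 gene, with symbols updated through Entrez identifiers for 34741 of them (GRCm38.p6 table). Each gene was represented by its brightest probe set by mean. The test was limma 3.58.1 (R 4.3.3) on log2(signal + 16), fitted once to the 6 arrays with a variance trend, with Benjamini-Hochberg adjustment over 10916 genes and a threshold of 0.05. The number of arrays limits the precision, with a median standard error of 0.231 (log2). Alternatives changed the pseudocount, the filter, the normalization, the variance trend, the choice of probe sets and the arrays fitted. The level of the deleted receptor's gene is not reported here, so the knockout labels were not checked by it.

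The members, gene lists, tests and alternatives were chosen with earlier results of these data known. Genes named are the 6 members, the measured calcitonin family, list members that pass or otherwise the 2 with the smallest p in a list, and the 10 genes nearest to Ramp3. Markers and further list members were named after their values were seen. Promoters come from RefSeq (GRCm38.p6).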

Additional observations from a re-analysis of the deposited data

How the results depend on the processing

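Ramp3, chosen by its agonist values, had log2 fold changes with ATL1222 from 2.06 to 2.99 against WT vehicle under the 18 alternatives. Against KO vehicle they ran from 2.42 to 2.84 (2.06 to 2.99 and 2.46 to 2.84 when 1 array was left out). Changes of the filter, variance trend or probe set choice cannot move these values, as Ramp3 has 1 probe set. Nor can the replicate block, or leaving out arrays outside the 2 groups compared. Such alternatives say nothing about how stable the values are. In the knockout the value of Ramp3 ran from -0.59 to 0.34 when 1 array was left out. No member other than Ramp3 passed in any comparison under the 18 alternatives (counts 0 to 0 with 1 array left out), nor did Ramp3 in the knockout. Averaging probe sets turned the sign of Calcrl to 0.45 against WT vehicle, 0.44 against KO vehicle and 0.006 in the knockout, and of Ramp1 to 0.16 in the knockout. With 1 array left out, Calcrl ran from -0.20 to 0.19 in the knockout and from -0.37 to 0.023 against KO vehicle. Crcp ran from -0.061 to 0.02 in the knockout, from -0.049 to 0.48 against KO vehicle and from -0.069 to 0.46 against WT vehicle, and Ramp2 from -0.036 to 0.67 against WT vehicle. The causes of these differences between arrays and between probe sets were not tested. Ramp2 was below the limit in some alternatives and has no value there. Of the 10 genes nearest to Ramp3, 9 were kept with cyclic loess and 9 with a pseudocount of 64.

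Counts over all genes moved more. In the knockout, 3 genes passed, against 0 with every probe set tested separately (with or without the filter), 0 with no variance trend and 0 with probe sets averaged, and 3 to 10 with 1 array left out (10 without WT vehicle replicate 2, while leaving out KO vehicle replicate 2 gave 5). With ATL1222 against WT vehicle, 23 passed, against 35 with cyclic loess, 35 with the lowest 60% left out, 14 with no filter, 7 with every probe set and no filter, an alternative chosen after seeing the data, 0 with no variance trend, 40 with only the 4 arrays compared and 3 with probe sets averaged. With 1 array left out it was 5 to 39 (5 both without WT vehicle replicate 2 and with WT ATL1222 replicate 1 left out, and with a knockout array left out 39 for replicate 1 and 38 for replicate 2). Against KO vehicle 107 passed, against 70 with no filter, 70 with every probe set and no filter, 3 with no variance trend, 44 with probe sets averaged and 51 to 141 with 1 array left out (53 without KO vehicle replicate 2, and 51 without WT ATL1222 replicate 1).

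Replicate numbers are shared between groups. Deviations of replicate 1 from its group mean correlated between groups with r = 0.229, 0.234 and 0.15 over genes, but with 2 numbers this is only a hint of pairing. With the replicate number as a block, 9, 78 and 257 genes passed in the knockout, with ATL1222 against WT vehicle and against KO vehicle. The block cannot move a log2 fold change here, since each group holds both replicate numbers, and only the standard errors changed. With it Ramp3 had 2.53 ± 0.20 against WT vehicle and -0.13 ± 0.20 in the knockout. Ramp1 did not pass with ATL1222 (limma adjusted p = 0.195). The block changed no call among the members.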
